A study of Homo sapiens with 6 samples.

Results

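The genes described mark the mesenchymal state of neuroblastoma and are 9 of the 32862 rows of the expression table, chosen by name: TWIST1, VIM, SNAI2, FN1, NOTCH2, FOSL1, CD44, WWTR1 and YAP1. The name PRRX1 was also in the choice of 10 and is not analysed here. Poly(A)-selected RNA was sequenced from 3 libraries of SH-SY5Y human neuroblastoma cells in which OTULIN had been disrupted with CRISPR-Cas9 (labelled OTULIN KO) and from 3 libraries of wild-type (WT) SH-SY5Y cells. OTULIN is a deubiquitinase of linear ubiquitin chains. Both groups were untreated, grown in DMEM-F12 with serum, and all 6 samples carry the same batch label. The labels do not say whether the KO cells were 1 clone or whether replicates were grown apart. The p-values therefore measure the spread among these 6 libraries only, and that spread can be technical.

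Neuroblastoma cells occur in an adrenergic state, close to sympathetic neurons, and in a mesenchymal state, close to migrating neural crest cells. The mesenchymal state is marked by transcription factors of the PRRX, TWIST, SNAI and AP-1 families, by the Hippo pathway effectors YAP and TAZ, by NOTCH receptors, and by the surface, matrix and cytoskeleton proteins CD44, fibronectin and vimentin. PRRX1 and NOTCH signalling are known from other neuroblastoma lines to move cells towards this state. SH-SY5Y is usually classed as adrenergic.

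Depth separated the groups and bears on every value given here. The KO libraries held 725827 to 862932 counts, and the WT libraries 61772795 to 64352333. In the KO libraries 29202 of all 32862 genes had no count, and OTULIN itself was at 0 in each of them, against 1682, 2101 and 2155 counts in WT. That 0 does not check the labels, because 80.6% of the 3138 genes with like WT counts (within 1.5 times) were also at 0 in all KO libraries. Depth and genotype cannot be told apart in this design. In bulk RNA, fewer cells of a state and less RNA per cell cannot be told apart either.

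The stretch of DNA around a gene's start is where transcription factors such as AP-1, the E-box binding TWIST and SNAI proteins, and TEAD, the DNA-binding partner of YAP and TAZ, can act. RefSeq (GRCh38.p14) gave windows of 250 bases before and 50 after the start for 6 of the 9 genes, with a pair of windows for WWTR1. The windows of FN1 and VIM, the genes of the set with KO counts and a test, and of YAP1, the gene with no call, are shown 5′ to 3′. Capitals mark matches, on either strand, to the GC box GGGCGG, the TEAD motif GGAATG, the E-box CANNTG and the AP-1 motif TGANTCA.
FN1 (chr2:215436019-215436318, minus strand): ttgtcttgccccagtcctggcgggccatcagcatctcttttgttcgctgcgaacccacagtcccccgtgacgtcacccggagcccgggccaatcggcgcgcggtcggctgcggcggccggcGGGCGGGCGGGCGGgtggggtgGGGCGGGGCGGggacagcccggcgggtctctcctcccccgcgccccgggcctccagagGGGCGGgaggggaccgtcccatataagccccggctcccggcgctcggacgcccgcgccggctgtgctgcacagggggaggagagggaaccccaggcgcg
VIM (chr10:17227991-17228290, plus strand): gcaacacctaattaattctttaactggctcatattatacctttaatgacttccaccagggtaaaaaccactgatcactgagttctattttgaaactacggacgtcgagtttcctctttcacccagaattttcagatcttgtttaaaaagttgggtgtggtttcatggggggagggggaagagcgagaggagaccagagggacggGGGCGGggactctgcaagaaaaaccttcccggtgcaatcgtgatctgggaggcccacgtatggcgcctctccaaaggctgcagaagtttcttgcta
YAP1 (chr11:102110197-102110496, plus strand): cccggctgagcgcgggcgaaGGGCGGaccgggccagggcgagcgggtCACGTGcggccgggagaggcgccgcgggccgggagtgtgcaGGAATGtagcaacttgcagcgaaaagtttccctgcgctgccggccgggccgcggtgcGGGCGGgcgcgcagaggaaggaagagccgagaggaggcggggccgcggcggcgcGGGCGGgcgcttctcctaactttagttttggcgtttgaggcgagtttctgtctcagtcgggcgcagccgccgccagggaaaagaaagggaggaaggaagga
In FN1 all the capitals are GC boxes, 6 in all, in part overlapping each other. VIM has 1 GC box. YAP1 has 3 GC boxes, 1 E-box and 1 TEAD motif, the last 162 bases before the start. Over the 7 windows, the GC box was in those of 5 genes, the E-box in those of YAP1 and WWTR1, and the TEAD motif in that of YAP1. Among all 35116 RefSeq windows of this length, the shares with a match were 45.0% for the GC box, 68.7% for the E-box, 14.0% for the TEAD motif and 7.71% for the AP-1 motif. No window of the set held the AP-1 letters or CAGGTG, a form of the E-box bound by SNAI proteins that 20.6% of all windows hold. The windows differed widely in base composition. The G and C share was 76.7% for FN1, 70.7% for YAP1, 70.3% for NOTCH2, 63.3% for CD44, 48.0% for VIM, and 37.0% and 63.0% for the windows of WWTR1, against a median of 58.7% over all windows. A match is a description of the letters, not a bound site.

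In WT cells the 9 genes spanned levels from 0.162 to 160 FPKM (fragments scaled to gene length and library size, as deposited), a ratio of 993. TWIST1 stood first at 160 ± 7.2 FPKM (SD, n = 3), followed by VIM at 39.6 ± 1.0, SNAI2 at 5.42 ± 0.64 and FN1 at 3.30 ± 0.11. NOTCH2 was at 1.20 ± 0.057 FPKM, FOSL1 at 0.772 ± 0.082, CD44 at 0.428 ± 0.12, WWTR1 at 0.175 ± 0.033 and YAP1 at 0.162 ± 0.063. The ranges of neighbouring genes in this order did not overlap, apart from WWTR1 and YAP1, whose means differed 1.08-fold with overlapping libraries. TWIST1 ranked 155 among the 32795 genes with a WT count and VIM 820, whereas WWTR1 ranked 18720 and YAP1 19045. TWIST1 and VIM together made up 82.8% to 85.1% of the WT counts of the 9 genes.

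**Figure D1:**
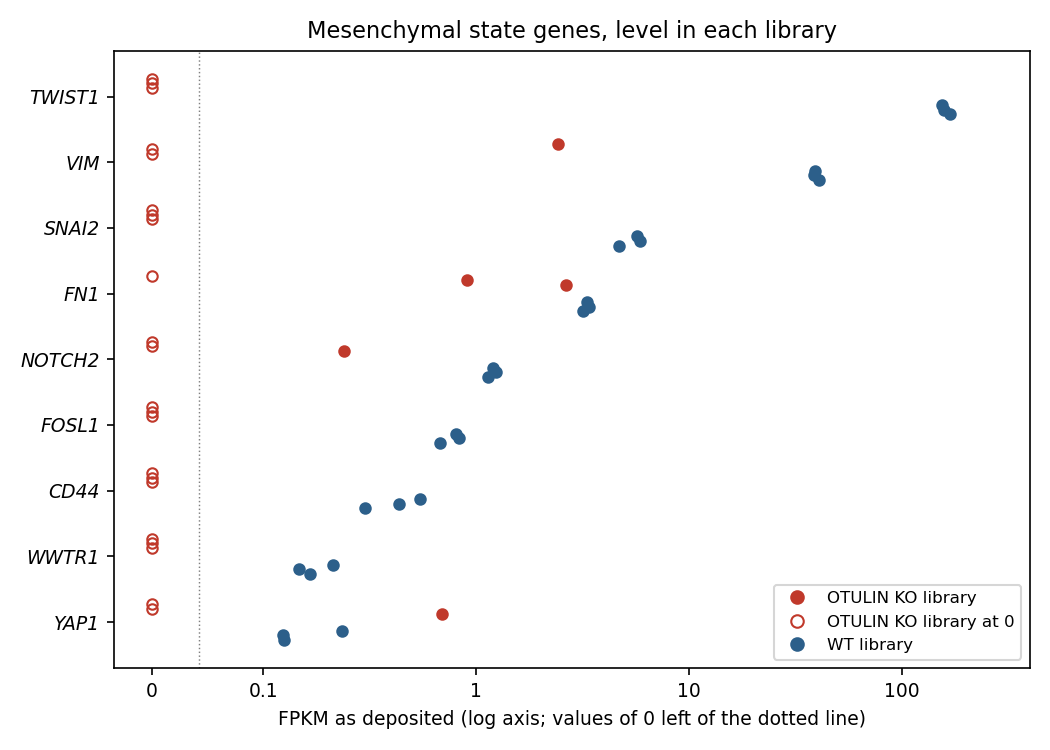
Deposited FPKM (log axis) of the 9 genes in each library, with the OTULIN KO libraries (red) above the WT libraries (blue) of each gene and values of 0 as open circles left of the dotted line. WT levels run from 160 FPKM for TWIST1 to 0.162 for YAP1, and no gene has a value above 0 in all 3 KO libraries.

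The length behind the FPKM differs from that of the mature messenger RNA, and this touches the levels but not their order. Count over FPKM gave 5646 bases for VIM and 18834 for FN1, against 2135 and 8905 bases for their longest protein-coding transcripts in GENCODE v29, ratios of 2.64 and 2.12. For TWIST1 these lengths were 2178 and 1666 bases, a ratio of 1.31. The FPKM of VIM and FN1 is therefore lower, relative to TWIST1, than counts per kilobase of the longest transcript would give. On that scale, counts per kilobase scaled to the library total, TWIST1 was at 210 and VIM at 105, and all 9 genes kept their places.

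Among the transcription factors, TWIST1 (ENSG00000122691, chromosome 7, 19020991 to 19117118, minus strand, hg38) had the highest WT level and no KO count. TWIST1 is a basic helix-loop-helix factor of neural crest and mesenchyme that binds E-boxes with an E protein as partner. It had 0, 0 and 0 counts in KO and 22796, 22190 and 20810 in WT. At its WT share of the counts, 254 to 301 counts would have been seen in each KO library. Against a floor of 3 counts over the 2398362 counts of the KO group, 1.25 CPM (counts scaled to the library total), TWIST1 was at least 279-fold lower in KO than its WT mean of 349 ± 15 CPM (SD, n = 3; edgeR quasi-likelihood test, adjusted p = 1.2e-05). The groups did not overlap. Of the 476 genes with like WT counts, 37.4% were likewise at 0 in all KO libraries.

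SNAI2 (ENSG00000019549, chromosome 8, 48917598 to 48921440, minus strand) encodes SLUG, a zinc finger repressor of epithelial genes that binds E-boxes. It had 0, 0 and 0 counts in KO and 1045, 1353 and 1265 in WT, where 14.1 to 16.8 counts per KO library would have matched the WT share. SNAI2 was at least 15.5-fold lower in KO than the WT mean of 19.4 ± 2.3 CPM (SD, n = 3; edgeR adjusted p = 0.00011), and 85.8% of the 2786 genes with like WT counts were also at 0 in KO. FOSL1 (ENSG00000175592, chromosome 11, 65892049 to 65900419, minus strand) encodes FRA-1, an AP-1 subunit. It had 0, 0 and 0 counts in KO and 89, 112 and 104 in WT. At the WT share only 3.88 counts would have been seen over all KO libraries together, so that the bound is at least 1.29-fold lower. Of the 1715 genes with like WT counts, 93.8% were also at 0 in KO.

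The Hippo effectors YAP1 and WWTR1, which encodes TAZ, were the least abundant of the set in WT. Both proteins carry WW domains and act as coactivators of TEAD factors. WWTR1 (ENSG00000018408, chromosome 3, 149517235 to 149736714, minus strand) had 0, 0 and 0 counts in KO and 95, 89 and 121 in WT, at least 1.3-fold lower. Of the 1715 genes with like WT counts, 93.8% were also at 0 in KO. YAP1 (ENSG00000137693, chromosome 11, 102110447 to 102233424, plus strand) counted 4, 0 and 0 in the KO libraries and 54, 56 and 101 in the WT ones. Its KO libraries lay on both sides of the WT range of 0.868 to 1.64 CPM, at 4.94, 0 and 0 CPM. The ratio of pooled CPM, KO over WT, was 1.49, with a 95% counting interval from 0.402 to 3.87 that spans both directions. Without KO replicate 1 YAP1 was at 0 in KO. At the WT share 2.69 counts would have been seen over the KO group. A change of YAP1 within that interval, in either direction, was therefore not detectable at this depth. The interval takes in counting error alone and not the spread between libraries, so a change beyond it may not have been detectable either.

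The receptor genes NOTCH2 and CD44 had few KO counts. NOTCH2 (ENSG00000134250, chromosome 1, 119911553 to 120069662, minus strand) encodes a receptor whose cleaved intracellular part joins RBPJ and MAML proteins on DNA. It had 4, 0 and 0 counts in KO and 1291, 1467 and 1367 in WT, a pooled CPM 13.1-fold lower in KO (95% counting interval 5.13 to 48.2). Without KO replicate 1 NOTCH2 was at 0 in KO. Of the 2897 genes with like WT counts, 90.9% had no more KO counts than NOTCH2. CD44 (ENSG00000026508, chromosome 11, 35138882 to 35232402, plus strand) encodes the hyaluronan receptor. It had 0, 0 and 0 counts in KO and 206, 307 and 373 in WT, at least 3.76-fold lower than the WT mean of 4.71 ± 1.4 CPM (SD, n = 3). Of the 1566 genes with like WT counts, 90.6% were also at 0 in KO. These intervals and floors take in counting error alone, as no molecular identifiers are named in the sources.

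Vimentin and fibronectin, the cytoskeletal and matrix genes of the set, kept some counts in KO. VIM (ENSG00000026025, chromosome 10, 17228241 to 17237593, plus strand) encodes the type III intermediate filament of mesenchymal cells. It had 0, 0 and 12 counts in KO and 14316, 14104 and 13711 in WT, that is 5.51 ± 9.5 and 224 ± 5.7 CPM (SD, n = 3 each). All 3 KO libraries lay below the WT range. The pooled CPM was 44.7-fold lower in KO (95% counting interval 25.6 to 86.5; log2 change -5.87, SE 0.70, edgeR adjusted p = 0.00017). Without KO replicate 3 VIM was at 0 in KO. Of the 821 genes with like WT counts, 71.7% had no more KO counts than VIM.

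FN1 (ENSG00000115414, chromosome 2, 215360440 to 215436073, minus strand) encodes fibronectin, a matrix glycoprotein bound by integrins. It had 42, 16 and 0 counts in KO, or 51.9, 18.5 and 0 CPM, and 3730, 4130 and 3856 counts in WT, or 60.0, 64.2 and 62.4 CPM. The KO libraries thus ranged from 0 to close below WT, and the WT libraries were tightly grouped. The mean was 23.5 ± 26 CPM in KO, against 62.2 ± 2.1 in WT (SD, n = 3 each), 2.65-fold lower. The mean difference was 6.71-fold without KO replicate 1 and 1.77-fold without KO replicate 3. The log2 change was -1.76 (SE 0.55, edgeR adjusted p = 0.019), and this call was lost with library totals in place of TMM factors (adjusted p = 0.058), with DESeq2 (0.10) and with limma on log2(FPKM + 1) (0.057). It was also lost without KO replicate 2 (adjusted p = 0.053) and without WT replicate 1 (0.084), 2 (0.096) or 3 (0.066).

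**Figure D2:**
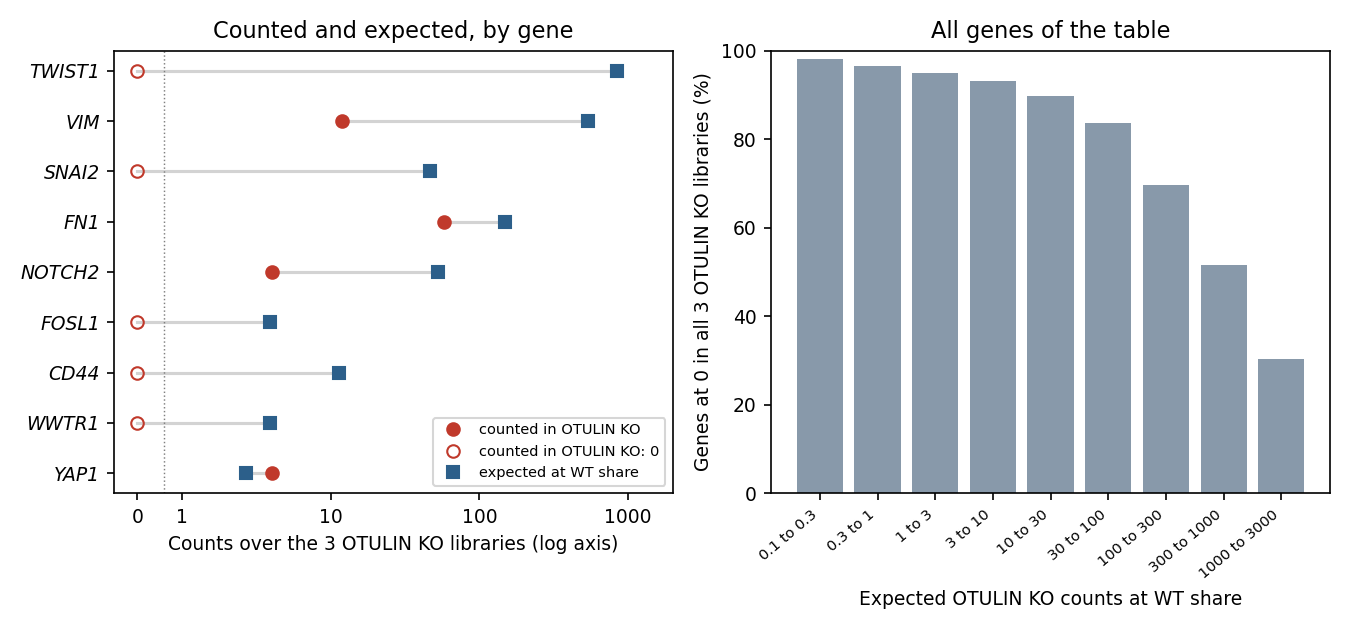
Left, counts of the 9 genes over the 3 OTULIN KO libraries (red, log axis, 0 as open circles) and the counts expected there at the WT share (blue squares); right, the share of all genes with no count in any KO library, by expected count. By difference in counts, rather than by distance on the log axis, TWIST1 and VIM are furthest from their expected 838 and 537 counts. Of the 1353 genes expected at 300 to 1000 counts, 51.5% were at 0.

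Genes averaging 1 FPKM or more over the 6 libraries were tested, and TWIST1, VIM, SNAI2 and FN1 passed that filter. All 4 were called lower in KO (edgeR, Benjamini-Hochberg adjusted p under 0.05), as were 88.0% of the 10820 genes tested, while 95.6% were called in either direction. A member that passes this filter mostly through WT had to differ, so the count says nothing beyond the values of each gene. NOTCH2, FOSL1, CD44, WWTR1 and YAP1 were below the filter. Fitted with all 32862 genes, of which 42.6% were called lower, 2.46% higher and 45.0% in either direction, NOTCH2 had an edgeR adjusted p of 0.0011, FOSL1 0.0051, CD44 0.0087, WWTR1 0.0092 and YAP1 0.97, while FN1 was at 0.050 and not called. CD44 lost its call without WT replicate 2 (edgeR adjusted p = 0.053). FOSL1 lost it when the WT libraries were thinned to the KO depth (edgeR adjusted p = 0.27), and WWTR1 came close to the threshold there (0.048). KO and WT values did not overlap for 8 of the 9 genes, YAP1 being the exception, and for 69.1% of all genes and 96.2% of those tested. For each of these 8 the exact two-sided permutation test on CPM gave p = 0.1, the smallest that 3 against 3 libraries allow.

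Scaling moved small changes. Among the 1496 tested genes with at least 30 KO counts, the middle log2 change was 0.57 under TMM factors, 0.96 under library totals and 0.01 under median-ratio factors. These genes were chosen for their KO counts, so their middle is not a neutral reference for the FN1 change of -1.76. With genes at 0 in KO set to their bound against the floor, all 10820 tested genes had a median of -4.61. The direction of TWIST1, VIM, SNAI2 and FN1 was lower in KO under all 3 scalings, whereas the fitted change of YAP1 was 0.04, 0.57 and -0.38 with TMM factors, library totals and median-ratio factors.

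No member had a count in all 3 KO libraries. FN1 had counts in 2 of them, VIM, NOTCH2 and YAP1 in 1, and the other 5 genes in none. Of all 10820 tested genes, 1508 (13.9%) had counts in all 3 KO libraries. Of 16 transcription factors of the adrenergic core, 8 had counts in all 3, and 7, PHOX2A among them, had counts in none. All 16 passed the filter, with a median WT level of 72.0 FPKM, whereas 5 members were below it. These shares therefore do not compare genes of like WT level. HAND2, a factor of that core, was at 72.8 FPKM in KO, against 241 ± 11 in WT. In WT, HAND2, PHOX2A (228 ± 26 FPKM) and GATA2 (225 ± 22) stood above TWIST1 at 160 ± 7.2 FPKM (SD, n = 3 each), in ranges that did not overlap it. All 16 adrenergic factors were called lower in KO, against 88.0% of all tested genes.

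The WT libraries differed among themselves by more than counting error for most of the 9 genes. The coefficient of variation over the 3 WT libraries was 4.38% for TWIST1 and 2.54% for VIM, against 0.675% and 0.844% from counting alone. It was 29.0% for CD44, 18.5% for WWTR1 and 39.3% for YAP1, against 5.82%, 9.92% and 11.9% from counting. FOSL1, at 10.2% against 9.92%, varied about as much as counting error. CD44, WWTR1 and YAP1 were all highest in WT replicate 3, where YAP1 was 1.88 times, CD44 1.49 times and WWTR1 1.35 times the mean of the other WT libraries. Of the 9 genes, 2 were highest in WT replicate 1, 4 in WT replicate 2 and 3 in WT replicate 3.

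**Figure D3:**
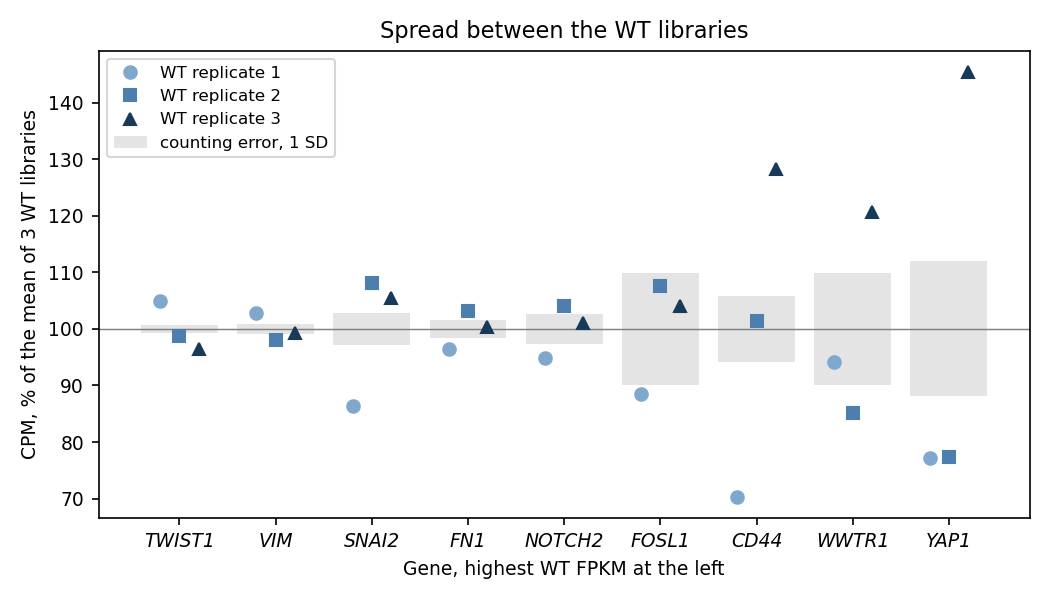
CPM of each gene in the 3 WT libraries as a percentage of their mean, with a grey band for counting error (1 SD). TWIST1, VIM, FN1 and NOTCH2 lie between 94.8% and 105% of the mean, and WT replicate 3 is highest for CD44, WWTR1 and YAP1.

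Markers of other cell types were measured beside these genes. The 8 epithelial markers had a summed level of 17.3 to 73.0 CPM in KO, against 11.7, 9.45 and 50.3 CPM in the 3 WT libraries. KRT5, a keratin of basal epithelium, had 10, 29 and 24 counts in KO and 34, 21 and 1042 in WT. Scaled to depth, that was 12.4, 33.6 and 33.1 CPM in KO and 0.547, 0.326 and 16.9 CPM in WT. Replicate 3 thus stood apart among the WT libraries, but not from the KO libraries. KRT14 had 0, 9 and 0 counts in KO and 0, 14 and 383 in WT. Its level was 6.20 CPM in WT replicate 3, the highest of the WT libraries, against 10.4 CPM in KO replicate 2. YAP1, CD44 and WWTR1 are also expressed in epithelial cells, and their WT means without WT replicate 3 were 0.869, 4.04 and 1.46 CPM, against 1.12, 4.71 and 1.62 with it. The part of the epithelial markers in these levels was not tested. The 7 blood markers reached 4.64 to 26.2 CPM in KO, against 1.51 to 4.08 in WT. HBA1, a haemoglobin gene on the blood list, had 4, 0 and 14 counts in KO and 0, 0 and 74 in WT. The 6 endothelial markers reached 0 to 4.13 CPM in KO, against 20.3 to 21.8 in WT. The 7 Schwann and glial markers reached 0 to 26.7 CPM in KO, against 1.60 to 3.43 in WT, with SOX10 at 0 in KO and at 4, 5 and 4 counts in WT. Fibroblast markers, many of which mesenchymal neuroblastoma cells share, reached 55.6 to 150 CPM in KO, against 507 to 558 in WT. Of 7 tested fibroblast markers 5 were lower, COL1A1 was higher at 47.8 ± 27.0 CPM in KO, against 9.37 ± 2.09 in WT (SD, n = 3 each; edgeR adjusted p = 0.0019), and COL1A2 was not called. Of all 12 in the table, 7 were at 0 in KO, and COL6A3, below the filter, averaged 8.60 CPM in KO, against 1.25 in WT. The summed level of the 10 adrenergic markers was 464 to 598 CPM in KO, against 5319 to 6016 CPM in WT.

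The related genes were taken list by list, against a background of 88.0% of all tested genes called lower and 7.63% called higher. List medians of the log2 change are given with genes at 0 in KO set to their bound against the floor, which puts all 10820 tested genes at a median of -4.61. Without the bounds it was -12.42, a value that depends on the prior count. On the same scale the median of the 4 tested members was -4.91. Genes called higher were few, 826 of all tested, and those named were chosen after their values were seen. A gene at 0 in KO could not be called higher, and 7716 tested genes were at 0 in all KO libraries. Counts in all 3 KO libraries were found for 1508 tested genes, so higher calls are less rare among genes seen in KO. Of 8 tested transcription factors of the epithelial to mesenchymal transition, TWIST1 and SNAI2 among them, 7 were lower and 1 was higher (median -3.64). TCF3, an E protein that pairs with TWIST1, had no KO count and 48.3 ± 5.0 FPKM in WT (SD, n = 3), at least 268-fold lower. PRRX2, the paralog of PRRX1, had 4, 0 and 0 counts in KO and 1207, 1248 and 896 in WT, 10.8-fold lower by mean CPM, and was at 0 without KO replicate 1. ZEB2, a zinc finger repressor of the same class, was the factor called higher, with 394, 449 and 426 counts in KO and 3127, 3529 and 3586 in WT. Its mean was 531 ± 51 CPM in KO, against 54.4 ± 3.9 in WT (SD, n = 3 each; log2 change 2.90, SE 0.13, edgeR adjusted p = 9.4e-06). That call held under all 3 scalings.

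Among the paralogs and other family members of the 9 genes, 5 of 19 with a row were tested, 4 were lower and FOSL2 was not called (median -3.47). SNAI1, the SNAI2 paralog, was at 0 in KO and at 7.43 ± 0.23 FPKM in WT (SD, n = 3), at least 11.0-fold lower. SHOX2, a homeobox relative of PRRX1, was at 0 in KO and at 7.67 ± 0.28 FPKM in WT, at least 33.5-fold lower. TWIST2, with 0, 0 and 0 counts in KO and 35, 4 and 19 in WT, was below the filter.

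Of the wider set of mesenchymal genes, 38 of 41 had a row, 21 were tested, 15 were lower, 4 were higher and 2 were not called (median -3.47). Their summed level was 1927 to 2480 CPM in KO, against 1608 to 1689 CPM in WT. Most of that KO sum was SOX4, a transcription factor of neural progenitors and many tumours, at 1350 ± 170 CPM in KO, against 416 ± 3.2 in WT (SD, n = 3 each; edgeR adjusted p = 1.3e-05). Besides ZEB2, SIX4 and the glucocorticoid receptor gene NR3C1 were also called higher. SIX4 had 12, 25 and 32 counts in KO and 19, 30 and 54 in WT, and NR3C1 15, 33 and 24 in KO and 208, 179 and 330 in WT. ID1, an inhibitor of helix-loop-helix factors, had 5, 3 and 0 counts in KO and was 45.7-fold lower by mean CPM. It was 84.7-fold lower without KO replicate 1 and 30.5-fold lower without KO replicate 3. LGALS1, encoding galectin-1, was without a KO count and at least 33.7-fold lower. All 4 higher calls held under all 3 scalings.

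Partners and targets of YAP and TAZ were lower in 11 of 13 tested cases, and 2 were not called (median -3.95). AMOTL1, an angiomotin that binds YAP, and GADD45A had no KO count and were lower by at least 163-fold and 28.0-fold. ASAP1 was at 210 ± 54 CPM in KO, against 160 ± 9.0 in WT (SD, n = 3 each; log2 change -0.01, edgeR adjusted p = 0.95). CCN1, the other gene not called, had 2, 0 and 8 counts in KO and 487, 426 and 391 in WT. With median-ratio factors both were called lower. TEAD1, a DNA-binding partner of YAP chosen after its values were seen, had 16, 18 and 27 counts in KO and 7776, 8215 and 8515 in WT. In WT it was at 11.2 ± 0.57 FPKM, against 0.162 ± 0.063 for YAP1. Of 12 tested genes of the Hippo kinase cascade, 9 were lower, 2 higher and 1, TAOK1, was not called (median -4.44). The lower calls were 8 with library totals and 10 with median-ratio factors, which called TAOK1 lower (log2 -0.88, edgeR adjusted p = 0.00066). MAP4K4, a kinase upstream of LATS, was at 771 ± 37 CPM in KO, against 304 ± 7.7 in WT, and TAOK3 at 46.9 ± 3.6 in KO, against 12.9 ± 0.755 in WT (SD, n = 3 each), both called higher under all 3 scalings. MOB1A and VGLL4 had no KO count and were at least 73.1-fold and 77.6-fold lower.

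**Figure D4:**
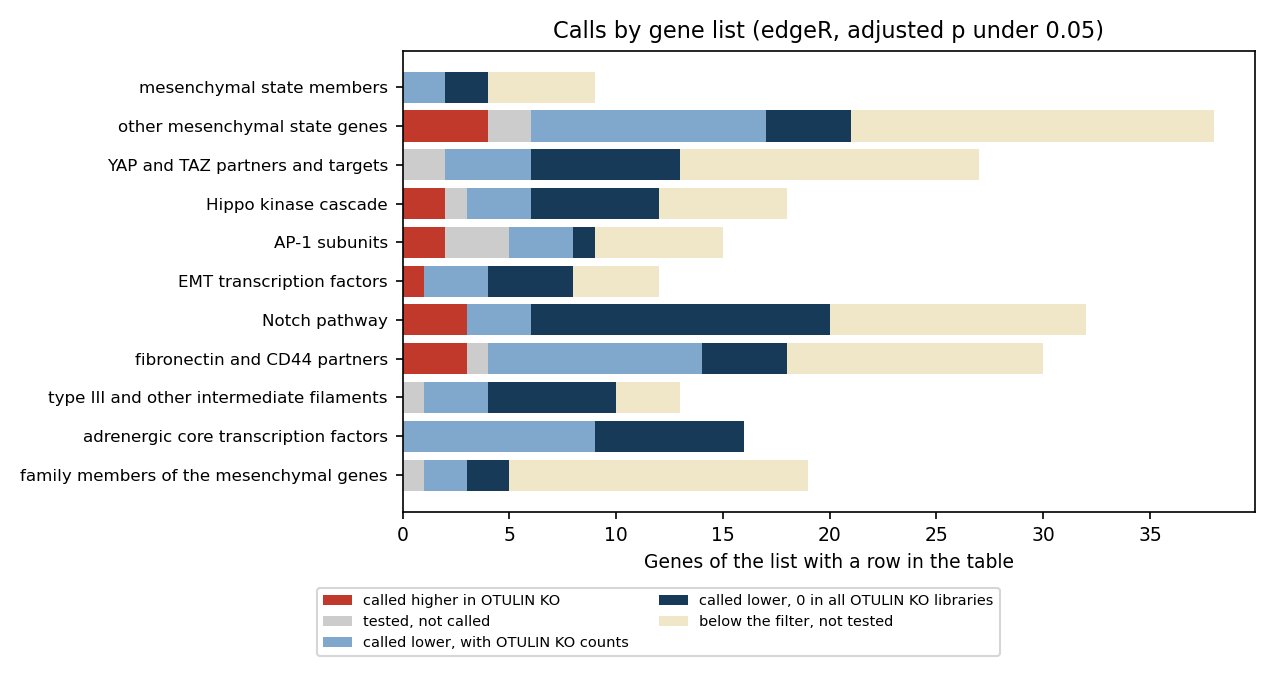
Number of genes per list that were called higher in OTULIN KO, tested and not called, called lower with or without KO counts, or below the filter. In the Notch list 14 of 20 tested genes had no KO count, and in the wider mesenchymal list 4 of 21.

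Of 9 tested AP-1 genes 4 were lower, 2 higher and 3 not called (median -1.14). JUND had the highest WT level of them, 33.2 ± 4.0 FPKM, and was 38.0-fold lower by mean CPM on 0, 0 and 4 KO counts. It was 25.3-fold lower without KO replicate 1 or 2, and at 0 without KO replicate 3. MAFG, a small MAF protein, was 52.0-fold lower on 0, 0 and 4 counts and likewise at 0 without KO replicate 3. JUNB was at 23.7 ± 9.1 CPM in KO, against 26.2 ± 1.95 in WT (SD, n = 3 each; log2 change -0.56, SE 0.23, edgeR adjusted p = 0.053), and was called lower with median-ratio factors. FOSL2, a FOS family relative of FOSL1, had 10, 10 and 0 counts in KO and 978, 788 and 849 in WT (edgeR adjusted p = 0.094), and was called lower with median-ratio factors (log2 -1.69, adjusted p = 0.030). MAFF, also not called, had 0, 0 and 44 counts in KO and 391, 317 and 333 in WT. The higher call of ATF2 was lost with median-ratio factors, where its log2 change was -0.105.

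Of 20 tested Notch pathway genes 17 were lower and 3 higher (median -4.74). APH1A, a subunit of the gamma-secretase that cleaves NOTCH receptors, was at 812 ± 64 CPM in KO, against 292 ± 12 in WT (SD, n = 3 each; edgeR adjusted p = 2.4e-05). ADAM10, the protease of the preceding cut, was 2.76-fold higher and the ligand gene JAG2 5.97-fold higher by mean CPM. These 3 calls held under all 3 scalings. PSENEN, another gamma-secretase subunit, and the glycosyltransferase gene RFNG had no KO count and were lower by at least 21.9-fold and 37.6-fold. Among the receptors in WT, NOTCH3 was at 2.89 ± 0.40 FPKM, NOTCH4 at 1.24 ± 0.13, NOTCH2 at 1.20 ± 0.057 and NOTCH1 at 0.0645 ± 0.027 (SD, n = 3). NOTCH3, chosen after its values were seen, had 12, 9 and 7 counts in KO and 2124, 1680 and 1788 in WT, and was the one receptor gene with counts in every KO library.

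Of 18 tested partners of fibronectin and CD44, 14 were lower, 3 higher and 1 not called (median -3.52), and with library totals 12 were lower. The 14 include VCL, vinculin, at a mean of 147 CPM in KO, against 142 in WT by library totals and with a TMM-scaled log2 change of -0.35, and RDX, radixin, at 60.8 CPM in KO, against 70.2 in WT. ITGB1, the beta-1 integrin subunit of the fibronectin receptor, had no KO count and 21081, 23705 and 22948 in WT, at least 287-fold lower. The matrix protease gene MMP2 had 4, 6 and 0 counts in KO and was 86.4-fold lower. It was 139-fold lower without KO replicate 2 and 57.6-fold lower without KO replicate 3. EZR, encoding ezrin, which links CD44 to actin, had the same KO counts as MMP2 and was 18.0-fold lower. It was 28.8-fold lower without KO replicate 2 and 12.0-fold lower without KO replicate 3. MSN, encoding the related moesin, was called higher at 111 ± 16 CPM in KO, against 12.8 ± 0.27 in WT. PTK2, the focal adhesion kinase gene, was at 418 ± 31 CPM in KO, against 124 ± 3.7 in WT, and COL1A1 at 47.8 ± 27 in KO, against 9.37 ± 2.1 in WT (SD, n = 3 each). These 3 higher calls held under all 3 scalings. COL1A2 was the gene not called, on 30, 5 and 9 counts in KO and 909, 876 and 1039 in WT. Of 10 tested intermediate filament genes, VIM among them, 9 were lower and INA was not called (median -6.65). INA, alpha-internexin of neurons, had 0, 109 and 0 counts in KO and 13312, 14665 and 14436 in WT, and was called lower with median-ratio factors (log2 -3.25, edgeR adjusted p = 0.032). Of the nuclear lamins, LMNB1 had no KO count and was at least 236-fold lower, and LMNB2 was 214-fold lower on 0, 4 and 0 KO counts and at 0 without KO replicate 2. In WT, VIM at 39.6 ± 1.0 FPKM stood below INA at 63.5 ± 2.8 and LMNB1 at 74.5 ± 0.92, and above PRPH, the type III filament gene of peripheral neurons, at 0.178 ± 0.092 (SD, n = 3).

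Some reads could not be told apart from those of neighbours or copies. The strandedness of counting is not given in the sources used here. TWIST1, VIM, CD44 and YAP1 overlap 5 other genes of the table, 4 of them on the other strand. The largest, ENSG00000232821 within the span of TWIST1, had 0, 0 and 0 counts in KO and 999, 1165 and 904 in WT, and VIM-AS1 had 0, 0 and 0 in KO and 56, 67 and 88 in WT. NOTCH2 has near-identical partial copies, NOTCH2NLA, NOTCH2NLB, NOTCH2NLC and NOTCH2NLR, whose WT counts reached at most 25 in any library, so the NOTCH2 counts are uncertain to the extent that reads were shared.

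The genes whose 6 library values were closest to those of the most abundant members, by Euclidean distance on log2(FPKM + 1), were EIF3CL (0.058), which shares near-identical sequence with EIF3C, and RPS7 (0.085) for TWIST1, JUND (0.49) and IDH3B (0.52) for VIM, and AGPS (0.023) and SMCO4 (0.040) for SNAI2. All but the VIM neighbours had no KO count. JUND had 0, 0 and 4 KO counts and IDH3B 0, 0 and 3, the same single library that held the VIM counts. The KO values were part of the distance, so these likenesses in KO come from the choice itself.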

How the data were processed

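For each gene, the authors deposited a whole-number count and an FPKM value of every library. The deposited counts carry no normalization; the FPKM scaling is the authors' own, per the file headers. StringTie 1.3.4d, HISAT2 2.0.4, cutadapt 1.9, DESeq2 and build hg38 appear in the submitters' processing notes without their roles. Neither the strandedness of counting nor the annotation release is stated there. Groups follow the genotype label.

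From the counts, edgeR 4.0.16 (R 4.3.3; glmQLFit and glmQLFTest, TMM factors, total counts as library sizes, genotype as the only term) tested genes averaging 1 FPKM or more, and p-values were Benjamini-Hochberg adjusted over all of them and called under 0.05. The script was tested on simulated data. CPM are counts scaled to the library total and folds are ratios of mean CPM unless called pooled. Genes at 0 in KO are compared with 3 counts over the KO group. Ratio intervals are exact, at 95%. Replicate pairs differed by a chi-square of 15.5 to 41.7 per degree of freedom, so none was 1 library counted again.

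The members and lists were chosen with earlier results of these data known. Each list names up to 3 tested genes of highest WT FPKM. Other list genes and markers are named outside this rule, and not each is marked as chosen after its values were seen. A few list genes are not reported here. The settings varied were the filter (none, or 5 FPKM), median-ratio factors, library totals, DESeq2 1.42.0, limma 3.58.1 on log2(FPKM + 1) and log2(FPKM + 0.1), WT thinned to the KO depth, a replicate block, and leaving out each library. Transcript lengths for the levels, and fits of members below the filter with all genes that have any count, were added after seeing the data.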

Additional observations from a re-analysis of the deposited data

How the results depend on the processing

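Over all genes, 10345 were called, and between 10179 and 10338 when a library was left out. The replicate block gave 741 (452 higher and 289 lower, 61.0% higher), and a mean of at least 5 FPKM gave 4504 of 4719 tested. Of the 4 tested members all 4 were called, 7 of 9 with no filter, 2 of 2 with a mean of at least 5 FPKM, and 3 to 4 when a library was left out. With the replicate block 0 of 4 were called by edgeR, 2 of them at an unadjusted p under 0.05, against 3 called with DESeq2. No paired samples are shown by the data: deviations of same-numbered KO and WT libraries correlated at -0.0275 to 0.0244, and 1 of 3 KO libraries correlated best with its own number. TWIST1, VIM and SNAI2 kept their direction and call under every alternative run but the block. FN1 kept its direction but lost its call in 11 of 14 alternatives, with adjusted p from 0.0027 to 0.22. YAP1 was called in none of 13. The cause of these changes was not tested. With 725827 to 862932 counts per KO library, members expected at fewer than 4 KO counts (FOSL1, WWTR1 and YAP1) have bounds or intervals close to or across 1.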
